A study of Mus musculus with 20 samples.

Results

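Cytochrome P450 enzymes are heme-containing monooxygenases that oxidise fatty acids, sterols, bile acids, retinoids, steroid hormones, drugs and plant compounds. Most sit in the endoplasmic reticulum and take electrons from NADPH through P450 reductase and cytochrome b5, and those in mitochondria take them through ferredoxin. The liver is their main site in mammals, the small intestine is another, and several members with a narrow range of substrates work in steroid-producing glands, kidney or brain. Because the active site holds heme, P450 enzymes draw on the iron supply that iron regulatory protein 1 (IRP1) helps to control. IRP1 binds mRNAs that carry an iron-responsive element (IRE), a stem-loop found in the untranslated regions of ferritin, transferrin receptor and other transcripts.

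The 70 genes described here were taken by symbol: each has a probe set that names 1 gene, and the whole symbol reads Cyp, digits, a letter and digits, as in Cyp2e1. They stand among 18193 genes with such a probe set, and 93 of the 45037 probe sets tested belong to them. For a gene with several probe sets the one with the highest mean over the 20 arrays was used. Letting the symbol merely begin with the pattern would add Cyp4a12a and Cyp4f41-ps and give 72 genes, and Cyp51 lies outside it. A further 4 probe sets each name 2 genes (Cyp3a41a with Cyp3a41b, Cyp2a4 with Cyp2a5, Cyp4a10 with Cyp4a31, Cyp4f16 with Cyp4f37) and were not attributed.

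RNA came from C57BL6/J mice, females and males together. Duodenum, liver and spleen were taken from animals given an iron poor diet (below 10 mg/kg) for 21 days from weaning, and bone marrow and brain came from mice 8 to 10 weeks old that ate an iron-normal diet. RNA was pooled: each bone marrow and brain sample held 6 mice, 1 of the duodenum samples held 4, and no number is given for the rest. In each reaction 50 µg of total RNA met a rabbit anti-IRP1 antibody, either with recombinant His-tagged IRP1 (the IRP1 reaction) or without it (the control reaction), and 120 ng of the recovered RNA was amplified in 2 cycles for an Affymetrix expression array. Each of the 5 tissues has 2 IRP1 and 2 control arrays, which makes 20 arrays in 10 groups. The control reaction holds RNA recovered without added IRP1, not total RNA. Diet and age go with tissue and cannot be told apart from it, and fewer cells of a type cannot be told apart from less RNA per cell. Nothing says that the 2 arrays of a group came from separate pools, so p-values measure the spread between these arrays, which may be technical.

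Signals are log2 values with array medians of 5.5 to 5.62, and standard deviations of 1.90 to 2.24 over probe sets. The number of arrays, not a read depth, limits the precision. Arrays of the same tissue correlated at 0.978 to 0.994 over all probe sets. In 3 arrays (the second spleen IRP1 array, the second spleen control and the first bone marrow control) the hybridization controls were 0.74 to 1.26 below the median array. Each tissue held the markers of its label. In liver the hepatocyte list averaged 13.17, in duodenum the enterocyte list 12.25, in spleen the lymphocyte list 10.27, in bone marrow the list for neutrophil precursors 13.32, and in brain the neural list 10.27. Some marker lists were also raised in tissues of another label. Pancreatic acinar markers averaged 13.59 in duodenum and 9.74 in spleen, and enterocyte markers averaged 7.75 in liver against 4.99 to 5.03 in spleen, bone marrow and brain. Part of the enterocyte list carried this average. On the liver controls 4 of its 8 genes were higher than in the mean of the other tissues, which includes duodenum (limma, adjusted p under 0.05). Of the rest 1 was lower and 3 were not called.

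In the control reactions the P450 genes spread widely between tissues, and most were highest in liver. The range between the highest and lowest tissue mean had a median of 4.03 on the log2 scale over the 70 genes, against 1.27 over all genes. A range of at least 5 was seen in 26 P450 genes (37.1%) and in 6.67% of all genes. By limma's F-test with Benjamini-Hochberg adjustment, 63 of 70 differed between tissues, where the same test called 72.9% of all genes. The highest mean was in liver for 50 genes (71.4%, against 22.9% of all genes), in duodenum for 12 (21.2% of all genes), in bone marrow for 3 (18.0%), in brain for 3 (21.3%) and in spleen for 2 (16.6%). Of the 50, 42 were also called higher in liver than in the other tissues, and the other 8 were Cyp26b1 and 7 genes under 6 in every group. Signals of 13 genes stayed under 6 in all 10 groups (18.6%, against 26.0% of all genes), among them Cyp2u1, Cyp2j11, Cyp2j13, Cyp4f39 and Cyp1a1. The remaining 57 reached 6 or more in at least 1 group.

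**Figure D1:**
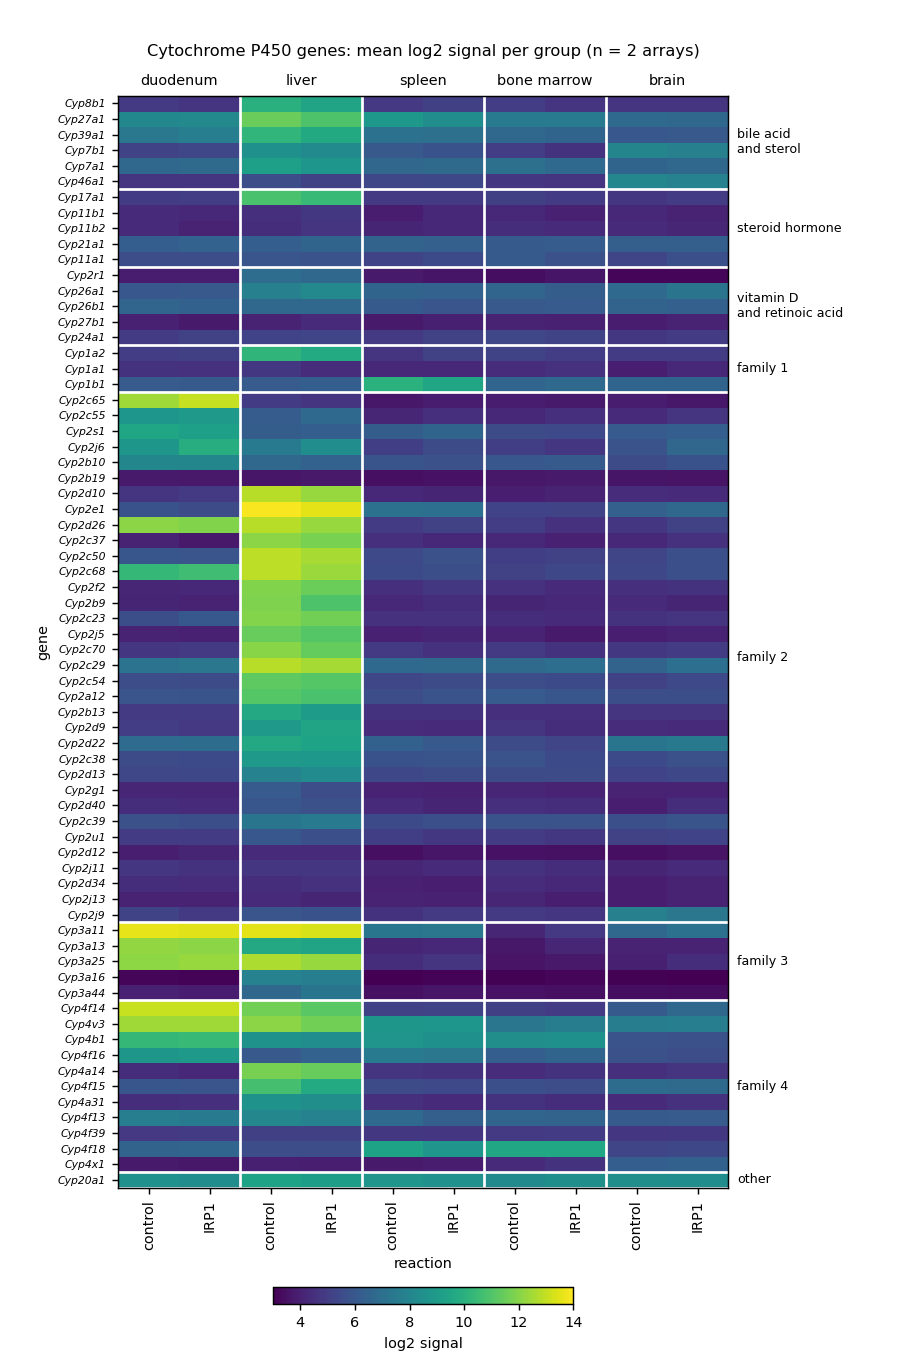
Mean log2 signal (colour, from 3 to 14) of the 70 P450 genes (rows, by subgroup) in each tissue and reaction (columns, mean of 2 arrays). The liver columns are the brightest for most rows, though dim genes such as Cyp27b1 differ little in colour between tissues, a smaller block is bright in duodenum, and the control and IRP1 columns of a tissue look alike for nearly every gene; colours compare tissues within a row, not rows with each other.

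Each tissue was next set against the mean of the other 4, in the control reaction, by limma with an adjusted p under 0.05 as the call. In liver 48 of the 70 P450 genes were higher, where 18.3% of all genes were, and 6 were lower, where 29.2% were. In duodenum 15 were higher (all genes 21.4%) and 31 lower (20.4%). In spleen 4 were higher (22.8%) and 48 lower (20.6%). In bone marrow 3 were higher (17.7%) and 46 lower (26.2%). In brain 4 were higher (22.6%) and 52 lower (30.6%). The liver share is thus above the background and the shares of higher genes in spleen, bone marrow and brain are below it, while in duodenum the share of higher genes equals the background. The median difference of liver from the other tissues was 2.51 over the P450 genes and -0.03 over all genes. The 6 genes lower in liver were Cyp1b1, Cyp2c65, Cyp2s1, Cyp4f16, Cyp4f18 and Cyp4x1, and without the first liver control array 3 were called.

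Among the genes higher in liver, the 8 with the largest difference were family 2 enzymes and Cyp4a14. Cyp2d10, of the large mouse Cyp2d group, read 12.99 and 12.63 on the liver controls and at most 4.80 on any control array of another tissue. Its difference was 8.50 ± 0.25 (SE, adjusted p = 6.72e-14). Cyp2e1, which oxidises ethanol, acetone and other small molecules, read 14.11 and 13.71 in liver, near the top of the scale, and 7.79 ± 0.50 above the rest (adjusted p = 1.63e-09). No liver array overlapped another tissue for either gene.

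Cyp2c37 read 12.28 and 11.86 on the liver controls, and its difference was 7.80 ± 0.36. Cyp2c50, its close relative, read 13.18 and 12.64, with a difference of 7.48 ± 0.30. Both belong to the Cyp2c group, whose mouse members oxidise arachidonic acid among other substrates. Cyp2b9, a P450 that is female-biased in mouse liver, read 11.99 and 11.72, with a difference of 7.66 ± 0.19. Cyp2f2, which activates naphthalene, read 12.14 and 11.69 (7.47 ± 0.20). Cyp2j5, an arachidonic acid epoxygenase, read 11.70 and 11.15 (7.43 ± 0.21). Cyp4a14, a fatty acid omega-hydroxylase under control of PPAR alpha, read 11.94 and 11.51 (7.22 ± 0.14). On the duodenum controls Cyp2c50 read 5.88 and 6.02, and the other 5 genes of this paragraph read between 3.89 and 4.51, so liver stood apart for each. All 8 kept their call under every one of 28 alternatives in processing or left-out arrays.

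By family, 26 of 34 family 2 genes, 5 of 5 family 3 genes, 6 of 11 family 4 genes and 2 of 3 family 1 genes were higher in liver. Cyp1a2, the constitutive hepatic member of family 1, read 10.62 and 9.74 on the liver controls and 5.38 or less elsewhere. Its neighbour Cyp1a1, which needs an aryl hydrocarbon receptor ligand to be switched on, stayed between 3.87 and 4.84 on every control array. Cyp1a1 was the other family 1 gene called higher in liver, by 0.49, at these dim signals. Cyp20a1, an orphan P450, was near level, at 7.90 to 9.64 over the control arrays, and 0.91 higher in liver.

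The share of P450 genes called higher in duodenum equalled that of all genes (21.4%), and part of these genes were also higher in liver. Of the 15 genes higher in duodenum, 10 were also higher in liver (Cyp2c55, Cyp2c68, Cyp2d26, Cyp2j6, Cyp3a11, Cyp3a13, Cyp3a25, Cyp4f13, Cyp4f14 and Cyp4v3). The other 5 were higher in duodenum but not in liver (Cyp2b10, Cyp2c65, Cyp2s1, Cyp4b1 and Cyp4f16). Another 38 were higher in liver but not in duodenum, and 17 in neither of these tissues. Among the genes higher in liver or duodenum, Cyp4b1 and Cyp4f16 were also called higher in spleen, and Cyp7b1 in brain. The classes were not counted over all genes. Set directly against duodenum, liver was higher for 39 genes (all genes 12.7%) and lower for 10 (22.2%).

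Cyp2c65 had the largest difference in duodenum. It read 12.26 and 12.60 there, 4.24 and 5.62 on the liver controls and 3.61 to 4.08 in the other 3 tissues. The difference from the mean of the other tissues was 8.34 ± 0.32 (adjusted p = 2.45e-12), and liver minus duodenum was -7.50 ± 0.40. The probe set is of the s_at kind, which can pick up more than 1 transcript of a family. Within the liver, the second array of each reaction was the higher (5.62 control and 5.38 IRP1, against 4.24 and 3.91), and the enterocyte markers were ordered the same way (8.30 and 8.22 against 7.42 and 7.08). Their part in the liver signal was not tested.

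The Cyp3a enzymes, which handle many drugs, bile acids and steroids, divided between shared and liver-restricted members. Cyp3a11 read 13.51 and 13.66 in duodenum and 13.74 and 13.36 in liver, so the tissues overlapped, and liver minus duodenum was -0.03 ± 0.94. Cyp3a25 read 12.09 and 12.18 in duodenum and 13.02 and 12.28 in liver (0.52 ± 0.39, adjusted p = 0.369). Cyp3a13 was the intestinal member, with 12.35 and 12.08 in duodenum against 10.08 and 9.23 in liver (-2.57 ± 0.34, adjusted p = 1.49e-05). Cyp3a16 and Cyp3a44 were at 3.01 to 4.39 on the duodenum controls and at 6.26 to 8.58 on the liver controls. All 5 genes were lower in spleen, in bone marrow and in brain than in the mean of the other tissues.

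Family 4 held the other large duodenal signals. Cyp4f14, a leukotriene and fatty acid omega-hydroxylase, read 13.06 and 13.09 in duodenum, 11.88 and 11.48 in liver and 4.91 to 6.26 elsewhere. Liver minus duodenum was -1.40 ± 0.18 (adjusted p = 1.12e-05). Cyp4b1 read 10.44 and 10.18 in duodenum, 8.31 to 8.92 in liver, spleen and bone marrow, and 5.86 and 5.76 in brain, so brain was the lowest. Cyp4v3, a fatty acid hydroxylase, was at 12.32 and 12.54 in duodenum and 12.35 and 11.86 in liver, with overlapping arrays. Cyp2b10, a target of the receptor CAR, read 7.64 and 8.44 in duodenum with 7.46 and 8.64 in the matching IRP1 arrays, so its 2 replicates differed by a similar amount in each reaction.

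**Figure D2:**
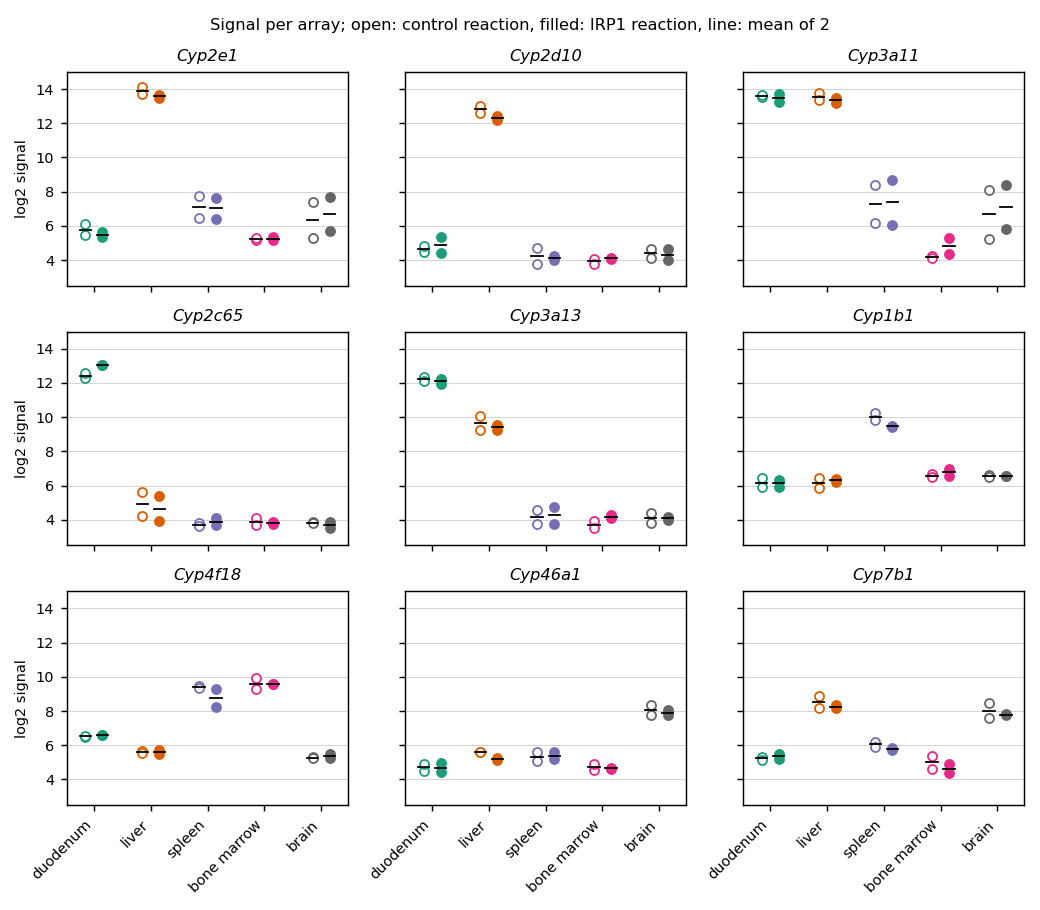
Log2 signal (vertical axis) of 9 P450 genes on each array, by tissue, with open circles for the control reaction, filled circles for the IRP1 reaction and lines for the mean of 2 arrays. Cyp2e1 and Cyp2d10 stand out in liver, Cyp2c65 in duodenum, Cyp1b1 in spleen, Cyp4f18 in spleen and bone marrow, and Cyp46a1 in brain; Cyp3a11 in spleen and brain splits by replicate, with 6.16 and 8.38 on the spleen controls.

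Only a few P450 genes were higher in the other 3 tissues. In spleen Cyp1b1, an extrahepatic enzyme that oxidises estradiol and polycyclic hydrocarbons, read 10.22 and 9.84, against 5.87 to 6.68 on every other control array. Its difference was 3.66 ± 0.18 (adjusted p = 1.92e-10). Cyp4f18, a leukotriene B4 hydroxylase of neutrophils and other myeloid cells, read 9.43 and 9.34 in spleen and 9.26 and 9.94 in bone marrow, and 6.53 or less elsewhere. It was 2.64 ± 0.21 above the mean of the other tissues in spleen and 2.91 ± 0.21 in bone marrow. The other probe set of Cyp4f18 did not repeat this. Its range between control tissues was 0.46, against 4.32 for the one used, and its highest tissue differed. For Cyp1b1, 1 of 2 other probe sets had the same highest tissue, and their ranges were 0.87 and 2.75 against 3.88. Neutrophil precursor markers averaged 8.13 in spleen and 13.32 in bone marrow against 5.73 to 6.11 elsewhere. In bone marrow 8 of 8 were called higher than in the mean of the other tissues. In spleen 2 were higher, 3 lower and 3 not called, against a mean that includes bone marrow. Their part was not tested.

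Smaller differences stood beside these. In spleen Cyp4f16 was 0.85 ± 0.13 and Cyp4b1 0.43 ± 0.13 above the mean of the other tissues. In bone marrow Cyp11a1 was 0.61 ± 0.17 above it, from readings of 6.52 and 5.74, and Cyp24a1 0.41 ± 0.14, from 5.5 and 5.22. Without the first bone marrow control array the values were 0.22 for Cyp11a1 and 0.27 for Cyp24a1, and neither was called. With signals floored at 6 Cyp11a1 was at 0.25 and not called. Cyp24a1 also lost its call without the second duodenum control, without the first control of liver, spleen or brain, with the floor, with array weights, or in a fit to the control arrays alone. Cyp4b1 was at 0.23 without the first spleen control and at 0.30 after quantile normalization, and not called in either.

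In brain 4 genes were higher. Cyp46a1, the cholesterol 24-hydroxylase of neurons, read 8.37 and 7.79 there and 4.48 to 5.62 on the other control arrays (2.99 ± 0.19, adjusted p = 8.91e-10). Cyp2j9 read 7.73 and 7.81 in brain and 6.23 or less elsewhere (2.61 ± 0.20). Cyp4x1 was dim everywhere but in brain, at 6.45 and 6.12 against 4.43 or less (2.31 ± 0.15). With signals floored at 6 its difference was 0.28. Cyp7b1, the oxysterol 7-alpha-hydroxylase, read 8.47 and 7.58 in brain and 8.91 and 8.16 in liver, so it was called in both, and 4.61 to 6.20 in the other 3 tissues.

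The members that act on endogenous substrates were read by pathway. Of 6 bile acid and sterol enzymes, 5 were higher in liver. Cyp7a1, the rate-limiting enzyme of the classic bile acid pathway, read 9.28 and 9.16 on the liver controls and 6.45 to 7.06 elsewhere (2.51 ± 0.13). Cyp8b1, which sets the share of cholic acid, read 10.24 and 9.73 against 5.23 or less (5.15 ± 0.19). Cyp27a1, the mitochondrial sterol 27-hydroxylase, read 11.76 and 11.22 in liver and was spread over the body, with 8.85 and 8.87 in spleen and 6.77 and 6.72 in brain. Cyp39a1, an oxysterol hydroxylase, read 10.27 and 10.24 in liver (3.47 ± 0.19). Only Cyp46a1 of this group was not called in liver.

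Of 5 steroid hormone enzymes, Cyp17a1, the 17-alpha-hydroxylase, was the 1 higher in liver. It read 11.00 and 10.67 there and 4.71 to 5.40 elsewhere, a difference of 5.92 ± 0.15. Cyp11a1, Cyp11b1, Cyp11b2 and Cyp21a1, which make steroids in the adrenal cortex and other glands, lay between 3.84 and 6.59 on the control arrays, and Cyp11b2 and Cyp21a1 did not pass the test between tissues (adjusted p = 0.556 and 0.204). Adrenal cortex markers averaged 5.15 to 6.29 in the 5 tissues, but the 5 genes measured were not alike. Against the mean of the other tissues, 2 were called higher and 1 lower in liver, and 2 higher and 0 lower in spleen. In duodenum, bone marrow and brain 0 were higher and 2 lower. Of 5 vitamin D and retinoic acid enzymes 2 were higher in liver. Cyp2r1, a vitamin D 25-hydroxylase, read 7.20 and 6.63 there and 4.21 or less elsewhere (3.36 ± 0.18, or 0.91 with signals floored at 6). Cyp26a1, which clears retinoic acid, read 7.93 and 7.66 (1.32 ± 0.25). Cyp26b1 was at 6.04 to 6.78 on all control arrays. Cyp27b1, which makes active vitamin D in the kidney, stayed at 3.76 to 4.29 (adjusted p = 0.300 between tissues). Cyp19a1 and Cyp26c1 were listed but not analysed here.

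Many P450 genes lie in rows of near-copies, and neighbours in a row could differ in where they peaked. In the RefSeq gene order, 10 members form the Cyp2c row. Cyp2c55 and Cyp2c65, at 1 end of it, were highest in duodenum, with 8.71 and 8.84 on the duodenum controls for Cyp2c55. The other 8 (Cyp2c29, Cyp2c39, Cyp2c38, Cyp2c68, Cyp2c37, Cyp2c54, Cyp2c50 and Cyp2c70) were highest in liver. In the Cyp2j row of 5, Cyp2j5 was highest in liver, Cyp2j6 in duodenum and its direct neighbour Cyp2j9 in brain, while Cyp2j11 and Cyp2j13 were dim. In the row of 4 that holds Cyp4x1, Cyp4a14, Cyp4a31 and Cyp4b1, the peaks were in brain, liver, liver and duodenum. Of the 7 genes of the Cyp2d row 6 were higher in liver, of which Cyp2d12 and Cyp2d40 had means under 6, and Cyp2d34, with 4.42 and 4.46 in liver and 4.31 and 4.53 in duodenum, was not called. Probe sets of near-copies can share signal, and of the 70 chosen 4 carry the suffix s and 1 the suffix x, which mark probes that match several transcripts. Of 23 other probe sets, for 18 genes, 15 had the same highest tissue as the 1 used, and for 10 genes every probe set did.

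Promoters of 51 of the 70 genes were found in a RefSeq table of 300 bases around each start (250 before and 50 after, build GRCm38.p6). The letters CAAAGTCCA, a match to sites of the nuclear receptor HNF4, were searched on both strands and occurred in 6 P450 genes (11.8%) and in 0.555% of 27025 genes. All 6 are among the 40 promoters of genes higher in liver or duodenum, and 0 of 11 other promoters held them. TATAAA, the letters of a TATA box, occurred somewhere in the window on either strand in 21 (41.2%, against 15.7% of all genes), of which 20 are among the 40 and 1 among the 11. In 6 of the 21 the match was on the opposite strand alone. On the gene's own strand with the first base from -40 to -20, limits set after the positions were seen, it occurred in 7 (13.7%, against 2.41% of all genes). The HNF1 motif, TTATGTAA (D-box) and TTGCGCAA (C/EBP type) had no match in the 51, against 0.47%, 1.11% and 0.207% of all genes. The letters were chosen with the tissue pattern known, members share ancestry, and a match is not a site that was shown to be bound.

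The 6 windows below run from 120 to 21 bases before the start, 5′ to 3′ on the gene's own strand, and are shown because they hold the match in genes of the liver and gut pattern; capitals mark CAAAGTCCA and TATAAA as read on this strand (Cyp2c70 also holds TATAAA on the opposite strand, left in lower case).
Cyp2c65 (chr19:39060886-39060985, plus strand): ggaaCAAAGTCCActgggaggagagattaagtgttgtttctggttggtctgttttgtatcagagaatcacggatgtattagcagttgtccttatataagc
Cyp2c68 (chr19:39741122-39741221, minus strand): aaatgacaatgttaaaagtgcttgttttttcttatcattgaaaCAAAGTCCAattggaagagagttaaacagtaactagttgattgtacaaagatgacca
Cyp2c70 (chr19:40187307-40187406, minus strand): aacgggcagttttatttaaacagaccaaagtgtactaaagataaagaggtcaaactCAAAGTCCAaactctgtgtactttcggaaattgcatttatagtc
Cyp3a11 (chr5:145879875-145879974, minus strand): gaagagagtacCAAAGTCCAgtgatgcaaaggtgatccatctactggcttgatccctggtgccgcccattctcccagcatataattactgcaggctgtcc
Cyp3a16 (chr5:145469744-145469843, minus strand): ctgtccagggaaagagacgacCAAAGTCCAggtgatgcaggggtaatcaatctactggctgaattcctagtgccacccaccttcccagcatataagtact
Cyp8b1 (chr9:121916326-121916425, minus strand): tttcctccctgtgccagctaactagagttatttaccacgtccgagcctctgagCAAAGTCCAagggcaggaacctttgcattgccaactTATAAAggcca

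The match began at -116 in Cyp2c65, -77 in Cyp2c68, -64 in Cyp2c70, -109 in Cyp3a11, -99 in Cyp3a16 and -67 in Cyp8b1, counted from the start. In none of the 6 did it overlap a TATAAA. The genes that carry it had different tissue patterns. Cyp2c65 was a duodenal gene, Cyp2c70, Cyp3a16 and Cyp8b1 were liver genes, and Cyp2c68 and Cyp3a11 were high in both.

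The partners of the P450 enzymes were read from lists of their own. Of all genes, 18.3% were called higher and 29.2% lower in liver, and 21.4% and 20.4% in duodenum. The shares were 22.8% and 20.6% in spleen, 17.7% and 26.2% in bone marrow, and 22.6% and 30.6% in brain. Of 4 measured electron donors, 4 were higher in liver and 4 in duodenum: Fdx1, the ferredoxin of mitochondrial P450s, by 1.85 in liver and 1.62 in duodenum, Cyb5r3, a cytochrome b5 reductase, by 1.84 and 2.43, and Cyb5b by 1.42 and 2.31. Of 9 measured receptors that switch P450 genes on or off, 8 were higher in liver and 7 in duodenum. Nr1h4, the bile acid receptor FXR, was 4.67 higher in liver, Ppara 3.85 and Hnf4a 3.28. In duodenum Hnf4a was 3.84 higher, Nr1h4 3.13 and Nr1i2, the receptor PXR, 2.12. Genes of heme synthesis and breakdown were spread differently: of 12 measured, 4 were higher and 3 lower in liver, 1 higher and 9 lower in duodenum, 9 higher and 1 lower in spleen, 8 higher and 1 lower in bone marrow, and 0 higher and 10 lower in brain. Alas1, the rate-limiting enzyme of heme synthesis outside red cells, was higher in liver by 1.25 and in duodenum by 1.46. Alas2, its erythroid form, read 11.73 in spleen and 12.57 in bone marrow on average against 7.78 in liver. The 5 erythroid markers averaged 10.62 in spleen, 12.20 in bone marrow and 4.40 to 5.0 elsewhere, and their part in the heme list was not tested.

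In spleen and brain several liver genes differed between the 2 replicates, and they did so alike in both reactions. Cyp3a11 read 6.16 and 8.38 on the spleen controls and 6.05 and 8.70 on the IRP1 arrays. In brain it read 8.11 and 5.26, then 8.38 and 5.84. Cyp2e1 read 6.46 and 7.77 on the spleen controls with 6.41 and 7.66 on the IRP1 arrays, and 7.41 and 5.32 in brain with 7.68 and 5.71. Cyp2c37 and Cyp2c50 were ordered the same way in both tissues. The arrays numbered 2 in spleen and 1 in brain were thus the higher. The 10 hepatocyte markers moved with them, at 5.80 and 7.49 on the spleen controls, 5.74 and 7.40 on the spleen IRP1 arrays, 7.33 and 6.48 on the brain controls and 7.21 and 6.56 on the brain IRP1 arrays. In bone marrow the markers stayed at 5.34 to 5.57, and Cyp2e1 at 5.16 to 5.33. Their part in the P450 signals of spleen and brain was not tested. In the tissue comparisons Cyp3a11 had an error of 0.74 and Cyp2e1 of 0.50.

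Few P450 transcripts were called different between the IRP1 and control reactions, and few of all genes were. In the mean of the 5 tissues, 1 of the 70 genes was higher with IRP1 (0.912% of all genes were) and 0 were lower (1.19%). The median difference was -0.02 over the P450 genes and -0.01 over all genes. At an unadjusted p under 0.05 there were 4 P450 genes, where 18.2% of all genes passed. Within single tissues limma called 0 of 70 in duodenum (0.115% of all genes), liver (0.181%), spleen (0.104%), bone marrow (0.159%) and brain (0.126%). At an unadjusted p under 0.05 the counts were 1 in duodenum (4.46% of all genes), 18 in liver (15.04%), 6 in spleen (10.7%), 0 in bone marrow (5.30%) and 3 in brain (6.32%). The test of whether the difference itself varied between tissues called 0 (0.0110% of all genes), with a lowest adjusted p of 0.930. The IRE-bearing transcripts measured the same way (Tfrc, Slc40a1, Fth1, Epas1, Alas2 and Slc11a2) were all 6 higher in the mean, with a median difference of 1.60.

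**Figure D3:**
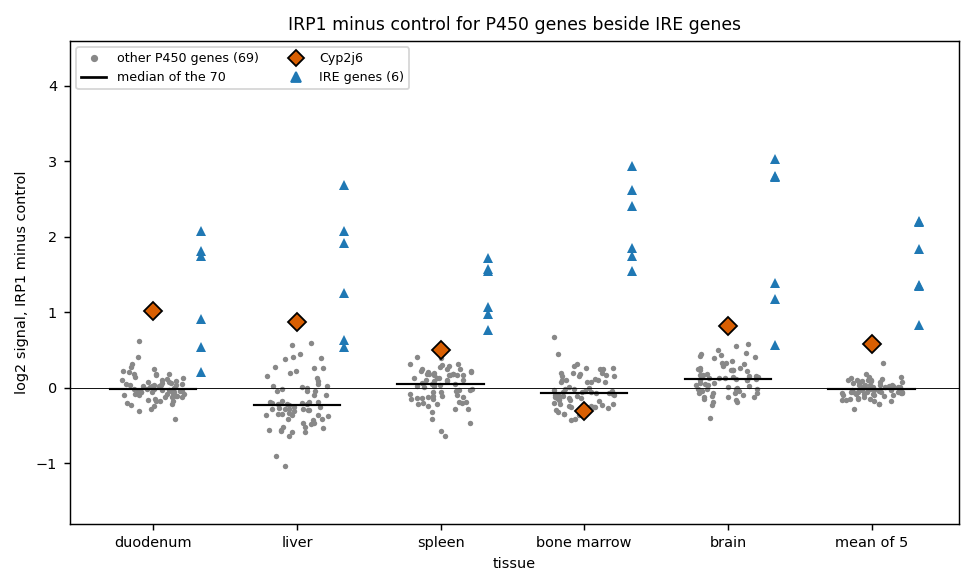
Difference between IRP1 and control reactions (log2, vertical axis) for the 70 P450 genes in each tissue and in the mean of 5, with Cyp2j6 as a diamond, the other 69 as grey points, their median as a line and 6 IRE-bearing genes as triangles. The grey points lie around 0 and Cyp2j6 lies above them in duodenum, liver and brain and in the mean, at 0.58, and below 0 in bone marrow.

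The gene that passed was Cyp2j6, an enzyme of the Cyp2j group, whose members make epoxides from arachidonic acid. With its main probe set the duodenum controls read 8.73 and 8.92 and the IRP1 arrays 10.29 and 9.40. In liver the controls read 7.67 and 7.38 and the IRP1 arrays 8.40 and 8.38. In brain they were 5.76 and 5.84 against 6.71 and 6.52. The groups did not overlap in these tissues.

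Spleen was dimmer, with 5.12 and 4.93 on the controls and 5.65 and 5.41 with IRP1, and there too the groups did not overlap. Bone marrow ran the other way, with 5.01 and 5.11 on the controls and 4.82 and 4.69 with IRP1. The differences were 1.02 in duodenum, 0.87 in liver, 0.50 in spleen, -0.30 in bone marrow and 0.81 in brain, each ± 0.22 (SE). None passed alone (adjusted p = 0.163, 0.123, 0.50, 0.964 and 0.407). The mean was 0.58 ± 0.10, or 1.49-fold, with an adjusted p of 0.00616 over all probe sets. It was higher in 4 of 5 tissues. The call was kept under all 27 alternatives run for it, with differences of 0.49 to 0.67 and adjusted p from 0.000184 to 0.0406, the highest without the 3 arrays with dim hybridization controls.

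A second probe set of Cyp2j6 was higher with IRP1 in all 5 tissues. It read 6.73 and 7.05 on the duodenum controls and 8.37 and 8.17 with IRP1, a difference of 1.38 ± 0.18 that passed in duodenum alone (adjusted p = 0.00411). The other differences were 0.52 in liver, 0.52 in spleen, 0.40 in bone marrow and 0.50 in brain. The mean was 0.66 ± 0.08 (adjusted p = 0.000286). In bone marrow the probe sets therefore disagreed in sign, both with signals near 5. They also placed the highest control signal in different tissues, duodenum for the first and liver for the second. With the main probe set, leaving out the second duodenum IRP1 array gave 1.47 in duodenum with an adjusted p of 0.00816, quantile normalization gave 1.15 in liver with 0.0192, and array weights gave 1.02 in duodenum with 0.0474.

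**Figure D4:**
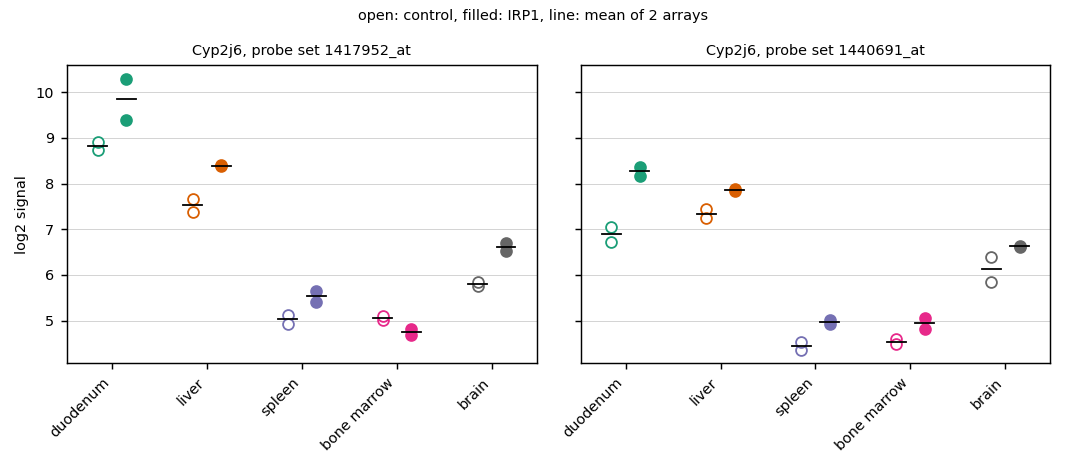
Log2 signal of Cyp2j6 on each array for its 2 probe sets (the one used throughout on the left), with open circles for control, filled circles for IRP1 and lines for the mean of 2 arrays. IRP1 arrays lie above controls in duodenum, liver, spleen and brain in both panels, and in bone marrow in the right panel only.

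In the mean of 5 tissues the Cyp2j6 difference lay below that of the IRE-bearing genes, whose mean differences ran from 0.84 for Fth1 to 2.22 for Alas2. In single tissues it lay within their range in duodenum (1.02, in 0.21 to 2.08), liver (0.87, in 0.54 to 2.69) and brain (0.81, in 0.57 to 3.03). It lay below their range in spleen (0.50, against 0.77 to 1.72) and bone marrow (-0.30, against 1.55 to 2.94). In its neighbours in the Cyp2j row the mean differences were -0.16 for Cyp2j9, -0.08 for Cyp2j5, 0.02 for Cyp2j11 and -0.05 for Cyp2j13. The difference between Cyp2j6 and its neighbours was not tested. No IRE could be searched in whole transcripts here. In the first 50 transcribed bases, the loop letters CAGTGN on the sense strand occurred in 5 of the 51 P450 genes (9.8%) and in 8.23% of all genes. The 5 were Cyp2b10, Cyp2c39, Cyp2c68, Cyp2c70 and Cyp4f18, and none of them was called between reactions.

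After Cyp2j6 the largest positive mean differences were 0.33 ± 0.09 for Cyp2c55 (adjusted p = 0.0831) and 0.18 ± 0.42 for Cyp3a11 (adjusted p = 0.885). Cyp2c55, another duodenal enzyme, read 8.71 and 8.84 on the duodenum controls with 8.58 and 9.31 in the IRP1 arrays, and 6.08 and 6.35 on the liver controls with 6.72 and 6.83. Without the first duodenum IRP1 array its mean was 0.40 and was called (adjusted p = 0.0323), which made 2 genes higher. The mean of Cyp3a11 turned to -0.04 without the first spleen control, -0.08 without the second spleen IRP1 array, -0.07 without the first brain IRP1 array and -0.11 without the second brain control. In spleen and brain its replicates differed alike in both reactions, and the fit did not take same-numbered arrays as pairs. The largest negative means were -0.28 ± 0.13 for Cyp4f15 (adjusted p = 0.276), -0.21 ± 0.09 for Cyp27a1 (0.251) and -0.21 ± 0.14 for Cyp7b1 (0.479), none of which passed.

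In liver the P450 genes leaned below the control. Of 70, 51 had a negative difference, with a median of -0.23, against -0.05 over all genes, of which 56.5% were negative. The lean was not particular to P450 genes. Hepatocyte markers had a median of -0.40 in this contrast, the electron donors -0.51 and the receptors -0.48. Macrophage markers had a median of -0.37, with the highest at -0.21, enterocyte markers -0.14 and neural markers -0.11. Lymphocyte, neutrophil precursor and erythroid markers went the other way, with medians of 0.17, 0.26 and 0.31. So did pancreatic acinar and adrenal cortex markers, with 0.20 and 0.04. The lists that went the other way were dim, at 6.50 or less on average over the liver arrays. Hepatocyte markers averaged 13.17 there, macrophage markers 9.22 and neural markers 5.89. The lowest were Cyp4f15, with 10.88 and 10.67 on the controls and 10.03 and 9.45 with IRP1 (-1.03 ± 0.28, adjusted p = 0.150), and Cyp2b9, with 11.99 and 11.72 against 10.94 and 10.95 (-0.91 ± 0.25, adjusted p = 0.144). Neither gene's arrays overlapped between reactions. The size of the lean changed with the processing. With each array centred on its median 54 genes were negative, with a median of -0.26, against -0.08 over all genes. With signals floored at 6, 44 were negative, with a median of -0.19, against 0 over all genes. The liver IRP1 arrays had standard deviations of 1.90 and 1.95 and the controls 2.11 and 1.99, and after quantile normalization 36 genes were negative, with a median of -0.01. With each array's standard deviation as a covariate 47 were negative, with a median of -0.19, against -0.0012 over all genes. What lowers these values was not tested. In bone marrow 45 were negative, where 37.6% of all genes were, and in brain 23, where 55.9% were. With signals floored at 6, 16 were negative in bone marrow and 20 in brain, and both medians were 0. The bone marrow median was -0.07, and -0.01 without the 3 arrays with dim hybridization controls.

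The partner lists were read in the same contrast. Of the electron donors and of the receptors 0 were called in the mean of 5 tissues, with medians of -0.13 and -0.12. Among the 12 heme genes 1 was higher, Alas2 by 2.22, which carries an IRE, and 2 were lower, Alad by -0.41 and Blvrb by -0.39. Over all genes 0.912% were higher and 1.19% lower.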

How the data were processed

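Values are log2 signals per probe set of an Affymetrix mouse array, as deposited. Per the labels, the authors made them with RMA, or with MAS5 (GCOS) and quantile normalization; which of these made the table is not given in the sources used here. Values near the floor and top of the scale compress fold changes.

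Of 45101 probe sets, 64 array controls were left out and 45037 were fitted, without further scaling, with limma 3.58.1 (lmFit, eBayes) in R 4.3.3: 1 mean for each of 10 groups, 10 residual and 6.14 prior degrees of freedom. P-values are two-sided and adjusted by Benjamini-Hochberg over all of these. Genes were called at an adjusted p under 0.05. The fit was tested on simulated data. Names came from the platform annotation.

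Members and lists were chosen with earlier results of these data known. Named were the 8 (liver) or 5 (other tissues) largest higher calls, every gene of the 3 endogenous-substrate groups, IRP1 calls, the 3 largest mean differences each way and up to 3 genes per partner list; genes shown for a row, family or tissue class were chosen after their values were seen. Alternatives were quantile normalization, median centring, a floor at 6, array weights, plain-suffix probe sets, the wider symbol match, smaller fits, a replicate block and leaving out each array; liver against duodenum and the array spread as a covariate were added after the data were seen. Figures used Python 3.11.15 and matplotlib 3.10.9.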

Additional observations from a re-analysis of the deposited data

How the results depend on the processing

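Of 775 recomputed counts of called P450 genes (26 counts), 762 stayed within 1.5 times the value given and 13 moved. With signals floored at 6, 1 gene was called higher with IRP1 in duodenum, 1 higher and 3 lower in liver, 1 lower in the mean, 2 in the test between tissues and 1 in bone marrow against the other tissues. Array weights gave 1 higher in duodenum, quantile normalization 1 higher in liver, and leaving out the 3 arrays with dim hybridization controls 1 higher in bone marrow against other tissues. Leaving out each array in turn gave 0 to 1 genes higher with IRP1 in duodenum, 1 to 2 higher in the mean, 3 to 6 lower in liver against other tissues and 1 to 3 higher in bone marrow. For the 33 named calls, 909 of 923 recomputed values kept direction and call; the rest were 9 of Cyp24a1, 3 of Cyp11a1 and 2 of Cyp4b1. The uncalled mean of Cyp3a11 turned to -0.013 with the floor, and to -0.04 and -0.08 without the first spleen control or the second spleen IRP1 array, and to -0.07 and -0.11 without the first brain IRP1 array or the second brain control, in a leave-one-out range of -0.11 to 0.46; the causes of these moves were not tested. Same-numbered arrays deviated together with r of 0.27 in duodenum, -0.07 in liver, 0.53 in spleen, -0.04 in bone marrow and 0.12 in brain. No label states that they are pairs, and the main fit did not take the numbers as pairs. Deviations that same-numbered arrays share, such as those of Cyp3a11 in spleen and brain, therefore stay in its errors. With a replicate block 1 gene was higher in the mean, Cyp2j6 at 0.58 (adjusted p = 0.0129), and 0 in each tissue. With 2 arrays a group, the error of a difference within 1 tissue was 0.22 for Cyp2j6.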
